A study of Mus musculus with 12 samples.

Results

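The BCL2 family decides at the mitochondrial outer membrane whether a cell lives or dies, and 10 of its genes were followed here in M1-activated bone marrow-derived macrophages (BM-Mɸs). The genes were chosen by name: the pro-survival genes Bcl2, Bcl2l1, Mcl1, Bcl2a1a, Bcl2a1b and Bcl2a1d, the effectors Bax and Bak1, and the BH3-only genes Bid and Bcl2l11. They are 10 of 22243 genes and 11 of 28808 transcripts in the deposited table, and 9 of the 10 reached a mean of 1 TPM (transcript abundance per transcript length, scaled to the whole library), the level needed to enter the test. RNA was sequenced from cultures of 6 ErbB4myeKO and 6 ErbB4FF mice on a C57Bl/6 background, 1 of each genotype from each of 6 litters, to ask what the receptor tyrosine kinase ErbB4 does in activated macrophages. ErbB4FF mice carried floxed ErbB4 alleles, and their ErbB4myeKO littermates carried the same alleles with LysMCre, a Cre inserted at the Lyz2 locus that acts in myeloid cells. All cultures were grown from bone marrow with M-CSF from CMG14-12 conditioned medium, and all received 100 U/mL interferon-γ for 16 h and then 100 ng/mL lipopolysaccharide for 6 h. No library of resting cells was part of the set, so every value describes the activated state.

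Pro-survival proteins of this family bind and hold the effectors BAX and BAK, which otherwise form pores that release cytochrome c and start the caspase cascade. BH3-only proteins such as BIM, the product of Bcl2l11, and BID either fill the groove of the pro-survival proteins or engage the effectors directly. In macrophages, MCL1 and the A1 proteins encoded by the Bcl2a1 genes are short-lived proteins, and A1 is an early target of NF-κB after lipopolysaccharide. The ligand of ErbB4, NRG4, is known to drive death of inflammatory macrophages on longer exposure, and the genotype comparison gives the transcripts of this switch with and without the receptor after 6 h of lipopolysaccharide.

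The pro-survival genes Bcl2a1a, Bcl2a1b and Bcl2a1d are near-copies of each other, and their sequences are shown because they set how far the 3 values can be told apart. In GENCODE M21 (GRCm38), Bcl2a1d lies at chr9:88723285-88731914 on the minus strand, Bcl2a1a at chr9:88956900-88962419 and Bcl2a1b at chr9:89199209-89207827 on the plus strand. Each coding sequence has 519 bases, and the 3 differ at 12 positions. Identity over the coding bases was 97.9% between Bcl2a1a and Bcl2a1b (11 bases differ), 98.7% between Bcl2a1a and Bcl2a1d (7 bases) and 98.8% between Bcl2a1b and Bcl2a1d (6 bases). The first 120 coding bases, all in exon 1 of 2, hold 7 of the 12 positions, and capitals mark the positions where the 3 genes are not all the same. They lie at chr9:88957051-88957170 (Bcl2a1a), chr9:89199360-89199479 (Bcl2a1b) and chr9:88731600-88731719 (Bcl2a1d).
Bcl2a1a: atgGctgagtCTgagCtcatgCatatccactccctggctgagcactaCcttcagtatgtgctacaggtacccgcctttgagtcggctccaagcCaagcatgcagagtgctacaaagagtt
Bcl2a1b: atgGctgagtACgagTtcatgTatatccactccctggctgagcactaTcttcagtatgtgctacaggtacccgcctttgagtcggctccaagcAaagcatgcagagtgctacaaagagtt
Bcl2a1d: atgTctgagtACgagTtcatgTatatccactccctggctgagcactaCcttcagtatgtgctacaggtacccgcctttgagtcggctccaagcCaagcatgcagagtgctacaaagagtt

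Reads were single and 75 bases long, and 55.2% of the 75-base windows of the Bcl2a1a transcript also occur in other genes, against 68.4% for Bcl2a1b and 67.6% for Bcl2a1d. The other genes are the remaining copies, Gm29094 and, for Bcl2a1a and Bcl2a1d, Bcl2a1c; Gm29094 itself was listed at 37.6 to 66.2 TPM in the 12 libraries. The split of reads among the 3 copies is therefore uncertain, and their sum is given beside each of them. Among the remaining members, 15.0% of the 75-base windows of Bax also occur in Gm45808, which was listed at 0 to 2.44 TPM, and no such window of Bcl2, Bcl2l1, Mcl1, Bak1, Bid or Bcl2l11 occurs in another gene. Of the 75-base windows of Bax, Bak1, Bid and Bcl2l11, 92.2%, 86.3%, 81.0% and 73.4% occur in other, unlisted transcripts of the same gene. For Mcl1 and Bcl2 the share was 21.9% and 11.3%. The split of reads between listed and unlisted transcripts of these genes is therefore uncertain as well.

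The promoters of the 3 copies are shown because the 3 genes varied together over the libraries. The block below lies 186 to 94 bases before the start in Bcl2a1a and Bcl2a1b and 136 to 44 bases before it in Bcl2a1d, at chr9:88956714-88956806, chr9:89199023-89199115 and chr9:88731958-88732050 of GRCm38.p6 (RefSeq). Its 93 bases differ at 1 position, in capitals.
Bcl2a1a: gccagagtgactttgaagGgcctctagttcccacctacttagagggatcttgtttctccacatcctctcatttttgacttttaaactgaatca
Bcl2a1b: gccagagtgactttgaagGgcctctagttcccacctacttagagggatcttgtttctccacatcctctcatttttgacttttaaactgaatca
Bcl2a1d: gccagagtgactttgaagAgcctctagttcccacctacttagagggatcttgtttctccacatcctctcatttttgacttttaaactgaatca

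Over the 300-base promoter windows, 256 to 300 columns could be aligned and identity was between 96.0% and 99.2%. The κB consensus of NF-κB, searched on both strands, had no match in these 3 windows, and among the members only 1 of the 3 windows of Bcl2l1 held one. Of 32851 promoter windows of that length, 8.46% held a match. A missing match says only that these letters are not in the window.

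Both libraries of litter 5 stood apart from the rest: their median correlation with the other libraries was 0.882 and 0.879, and the principal transcripts of the table held 71.4% and 74.7% of their TPM, against 59.0% to 64.9% elsewhere. Their summed macrophage markers were also the lowest (1650 and 1578 TPM, against 1860 to 2466 TPM in the other litters), while all 6 macrophage markers were above 1 TPM on average. The ErbB4myeKO library of litter 3 came next, with a median correlation of 0.895 (others at least 0.923), the fewest genes above 0 TPM (10214) and the highest sum of 3 mitochondrial transcripts (14360 TPM, next 11050 TPM). The targeted gene did not check the labels at this depth: Erbb4 was listed at 0.583 ± 0.242 TPM in ErbB4myeKO and 0.450 ± 0.132 TPM in ErbB4FF (SD, n = 6 each). Lyz2, which LysMCre interrupts, was lower in the library labelled ErbB4myeKO in litters 1 to 5 but not in litter 6, where the library labelled ErbB4myeKO held 7997 TPM and the one labelled ErbB4FF held 2964 TPM, the lowest of the 12. Lyz2 thus goes against the labels of litter 6, and whether its libraries were exchanged was not tested. A genotype named here is therefore the label of the library, and without litter 6 the 9 members still had 0 unadjusted limma p under 0.05.

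Activated BM-Mɸs carried a large excess of A1 transcripts over the listed transcripts of every other member of the family. Mean levels over the 12 libraries were 1808 TPM for Bcl2a1b, 1424 TPM for Bcl2a1d and 624 TPM for Bcl2a1a, which placed them 49th, 66th and 173rd of the 8780 genes tested. Mcl1 followed with 277 TPM, Bax with 145 TPM, Bcl2l1 with 55.7 TPM, Bak1 with 48.0 TPM, Bid with 16.5 TPM and Bcl2l11 with 12.8 TPM. Bcl2, the founding member of the family, was close to the floor at 0.794 TPM. TPM is a level per transcript length, but the table holds principal transcripts only, so these are levels of the listed transcripts and not of whole genes. Of the transcripts in GENCODE M21, it lists the 1 of each Bcl2a1 gene, 1 of 2 for Mcl1 and Bcl2, 2 of 9 for Bcl2l1, 1 of 6 for Bax, 1 of 4 for Bak1, 1 of 5 for Bid and 1 of 8 for Bcl2l11.

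Some neighbours in this order overlapped over the 12 libraries. The ranges of Bcl2a1b and Bcl2a1d overlapped, as did those of Mcl1 and Bax, of Bcl2l1 and Bak1, of Bak1 and Bid, and of Bid and Bcl2l11. Within single libraries the order was firmer for the first pairs, since Bcl2a1b was above Bcl2a1d and Mcl1 above Bax in 12 of 12 libraries. Bcl2l1 was above Bak1 in 10 of 12 libraries, Bak1 above Bid in 10 of 12 and Bid above Bcl2l11 in only 7 of 12. The steps from Bcl2a1d to Bcl2a1a, from Bcl2a1a to Mcl1, from Bax to Bcl2l1 and from Bcl2l11 to Bcl2 separated the ranges fully.

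**Figure D1:**
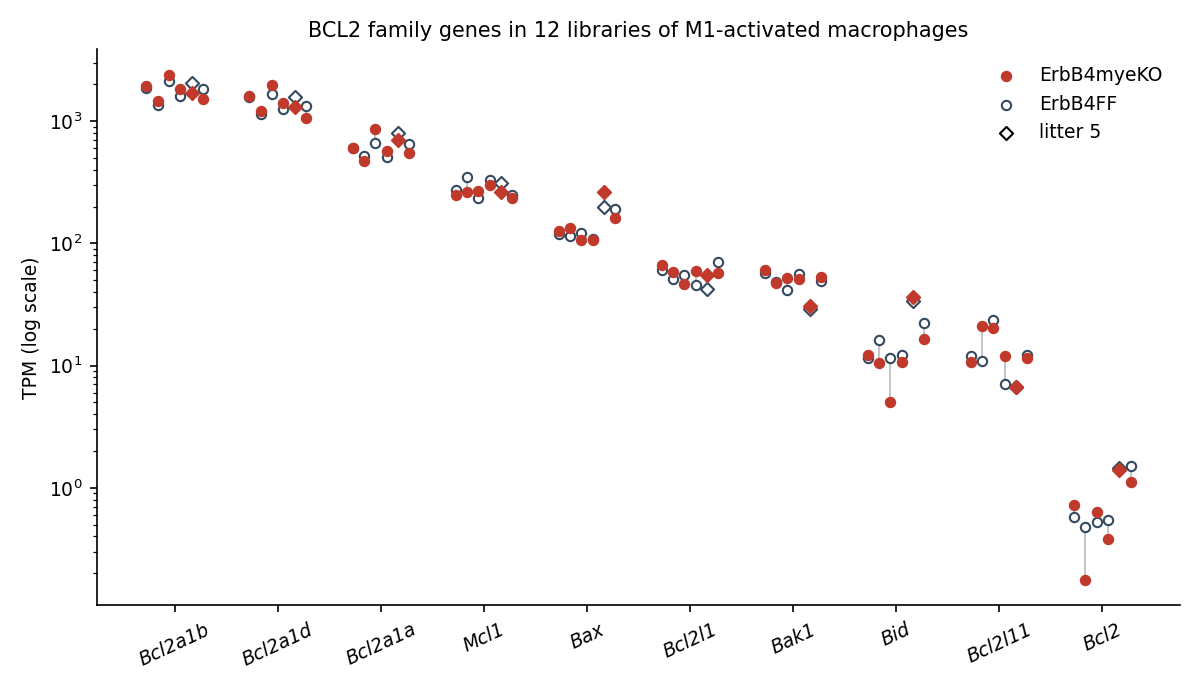
TPM of each member (vertical axis, log scale) in the 12 libraries, with members ordered by mean level. Filled red points are ErbB4myeKO, open points ErbB4FF, grey lines join littermates, litters run from 1 to 6 from left to right within a gene, and diamonds are litter 5. Bcl2a1b, Bcl2a1d and Bcl2a1a sit highest in every library and Bcl2 lowest, at 0.176 to 1.51 TPM.

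The 3 Bcl2a1 genes made up 88.3% to 94.3% of the summed TPM of the 6 pro-survival genes, with a median of 92.2%. The sum leaves out unlisted transcripts of Mcl1, Bcl2l1 and Bcl2 but none of the Bcl2a1 genes. Mcl1 made up 4.83% to 10.2%. The Bcl2a1 sum was 8.69 to 19.5 times the Mcl1 level, with the lowest ratio in the ErbB4FF library of litter 2 and the highest in the ErbB4myeKO library of litter 3. The shares within the sum were steady, as Bcl2a1b held 45.1% to 48.7%, Bcl2a1d 33.9% to 39.3% and Bcl2a1a 14.6% to 18.9%. The share of Bcl2a1a was highest in litter 5 (18.2% and 18.9%, against 14.6% to 17.4% in the other litters).

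**Figure D2:**
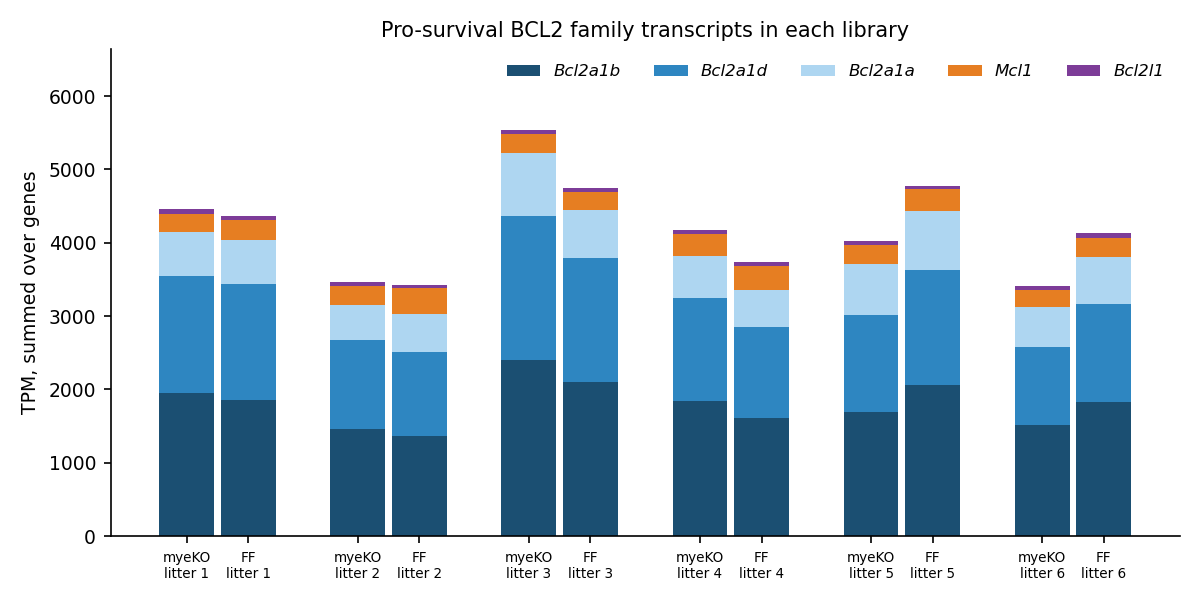
Summed TPM (vertical axis) of Bcl2a1b, Bcl2a1d, Bcl2a1a, Mcl1 and Bcl2l1 in each library, by litter and genotype. Blue segments, the Bcl2a1 genes, fill most of every bar; Bcl2 is below 2 TPM in every library and is not drawn.

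Transcripts of the pro-survival genes did not separate the genotypes. Bcl2a1b, at 1466 to 2402 TPM in ErbB4myeKO (median 1769) and 1365 to 2107 TPM in ErbB4FF (median 1841), gave a log2 difference of 0.00 (ErbB4myeKO minus ErbB4FF, on the log2(TPM + 0.5) scale; 95% interval -0.20 to 0.20; limma adjusted p = 0.998). Both groups had their highest library in litter 3 and their lowest in litter 2, so the genotypes overlapped and the litters moved together. Bcl2a1d ranged from 1058 to 1961 TPM in ErbB4myeKO (median 1361) and from 1142 to 1679 TPM in ErbB4FF (median 1445), with a log2 difference of -0.01 (interval -0.22 to 0.19; limma adjusted p = 0.968). Bcl2a1a ranged from 468 to 856 TPM in ErbB4myeKO (median 586) and from 506 to 804 TPM in ErbB4FF (median 624), with a log2 difference of -0.01 (interval -0.23 to 0.20; limma adjusted p = 0.974). Neither gene showed groups that lay apart.

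The sum of the 3 copies does not depend on how reads were divided among them, apart from reads shared with Bcl2a1c and Gm29094. It was 3860 ± 776 TPM in ErbB4myeKO and 3852 ± 574 TPM in ErbB4FF (SD, n = 6 each). The log2 difference was -0.01 (interval -0.21 to 0.20), with an exact two-sided permutation p over the 64 swaps of genotype within litters of 0.906. By litter the sum split, with values higher in ErbB4myeKO by 1.03 to 1.17 times in litters 1 to 4 and at 0.838 and 0.819 of the ErbB4FF littermate in litters 5 and 6. The interval leaves room for a fold between 0.866 and 1.15.

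Mcl1, at chr3:95658788-95663176 (plus strand), encodes a short-lived protein that myeloid cells depend on, and it leaned lower in ErbB4myeKO without passing the test. It ranged from 233 to 302 TPM in ErbB4myeKO (median 263) and from 234 to 348 TPM in ErbB4FF (median 292). The value was lower in the ErbB4myeKO littermate in 5 of 6 litters, by up to 0.40 on the log2 scale in litter 2, and higher in litter 3 by 0.19. The log2 difference was -0.14 (SE 0.08, interval -0.32 to 0.05; limma adjusted p = 0.641), and the exact permutation p was 0.156. Without litter 3, the litter that went the other way, the log2 difference was -0.20 with an unadjusted limma p of 0.0176 and an adjusted p of 0.515. Without litter 2, the litter with the largest difference, it was -0.08 with an unadjusted limma p of 0.300.

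Bcl2l1, which encodes BCL-XL and lies at chr2:152780668-152831728 (minus strand), ranged from 46.6 to 66.9 TPM in ErbB4myeKO (median 57.4) and from 42.7 to 70.6 TPM in ErbB4FF (median 52.9). The groups overlapped, 4 of 6 litters were higher in ErbB4myeKO, and the log2 difference was 0.09 (interval -0.17 to 0.35; limma adjusted p = 0.815). It ran from 0.03 without litter 4 to 0.17 without litter 6. It is the only member with 2 principal transcripts in the table, ENSMUST00000007803 with a mean of 41.1 TPM and ENSMUST00000109820 with a mean of 14.6 TPM. The second held between 11.8% and 47.7% of the gene's TPM, and both extremes were ErbB4myeKO libraries, of litters 4 and 3. Neither transcript separated the genotypes, with exact permutation p of 0.906 and 0.750. Of the 75-base windows, 96.1% of the first and 100% of the second occur in other transcripts of the gene, which limits this split.

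Bcl2, at chr1:106538178-106714274 (minus strand), was the member that did not reach the filter. It ranged from 0.176 to 1.41 TPM in ErbB4myeKO (median 0.679) and from 0.476 to 1.51 TPM in ErbB4FF (median 0.562). In a fit without the filter the log2 difference was -0.13 (interval -0.47 to 0.20), and the exact permutation p was 0.312. It was -0.05 without litter 2 and -0.24 with a pseudocount of 0.1. The authors' mean of normalized estimated counts for its transcript was 30.3, against 7109 for Bcl2a1b, so small differences of Bcl2 were not detectable.

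The effectors did not separate the genotypes either. Bax, at chr7:45461697-45466898 (minus strand), ranged from 107 to 262 TPM in ErbB4myeKO (median 129) and from 108 to 198 TPM in ErbB4FF (median 120). The highest library of both groups was that of litter 5, and 3 of 6 litters were higher in ErbB4myeKO. The log2 difference was 0.04 (interval -0.17 to 0.26; limma adjusted p = 0.893), and it was -0.03 without litter 5. Bak1, at chr17:27019810-27029009 (minus strand), ranged from 30.95 to 60.0 TPM in ErbB4myeKO (median 51.4) and from 29.3 to 57.1 TPM in ErbB4FF (median 48.7). Its lowest library in both groups was that of litter 5, and its log2 difference was 0.07 (interval -0.10 to 0.23; limma adjusted p = 0.787). It was 0.02 without litter 3 and 0.11 without litter 4.

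Among the BH3-only genes, Bid had the largest genotype difference of the members tested. Bid, whose protein links death receptors and caspase 8 to the mitochondrion, lies at chr6:120891930-120916853 (minus strand). It ranged from 5.08 to 36.4 TPM in ErbB4myeKO (median 11.4) and from 11.5 to 33.7 TPM in ErbB4FF (median 14.1). It was lower in ErbB4myeKO in litters 2, 3, 4 and 6, down to 0.440 of the littermate in litter 3, whose ErbB4myeKO library stood apart as described, and slightly higher in litters 1 and 5. The log2 difference was -0.36 (SE 0.17, interval -0.74 to 0.03), which missed the threshold with an unadjusted limma p of 0.0667, an adjusted p of 0.603 and an exact permutation p of 0.125. Without litter 5, where Bid was highest, the log2 difference was -0.45, with an unadjusted limma p of 0.0394 and an adjusted p of 0.501. Without litter 1 it was -0.44, with an unadjusted limma p of 0.0440 and an adjusted p of 0.600. Without litter 3 it was -0.21.

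Bcl2l11, at chr2:128126038-128162547 (plus strand), ranged from 6.62 to 21.1 TPM in ErbB4myeKO (median 11.7) and from 6.68 to 23.4 TPM in ErbB4FF (median 11.4). Its mean log2 difference of 0.20 (interval -0.21 to 0.61; limma adjusted p = 0.733) came from 2 litters: the ErbB4myeKO library was 1.95 times its littermate in litter 2 and 1.70 times in litter 4, while the other 4 litters were at 0.863 to 0.991. The exact permutation p was 0.5. Without litter 2 the log2 difference was 0.05.

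Counted over the family, 0 of the 9 members tested had an unadjusted limma p under 0.05, against 8.21% of all genes tested (721 of 8780), and 0 had an adjusted p under 0.05, against 0% of all genes. The log2 difference was above 0 for 5 members and below 0 for 4, with a median of 0.00, and no member moved the same way in all 6 litters. The median size of the log2 difference was 0.07 for the members and 0.13 for all genes tested. The median width of the 95% interval was 0.43 for the members and 0.67 for all genes. These intervals bound the change and do not show that there was none.

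**Figure D3:**
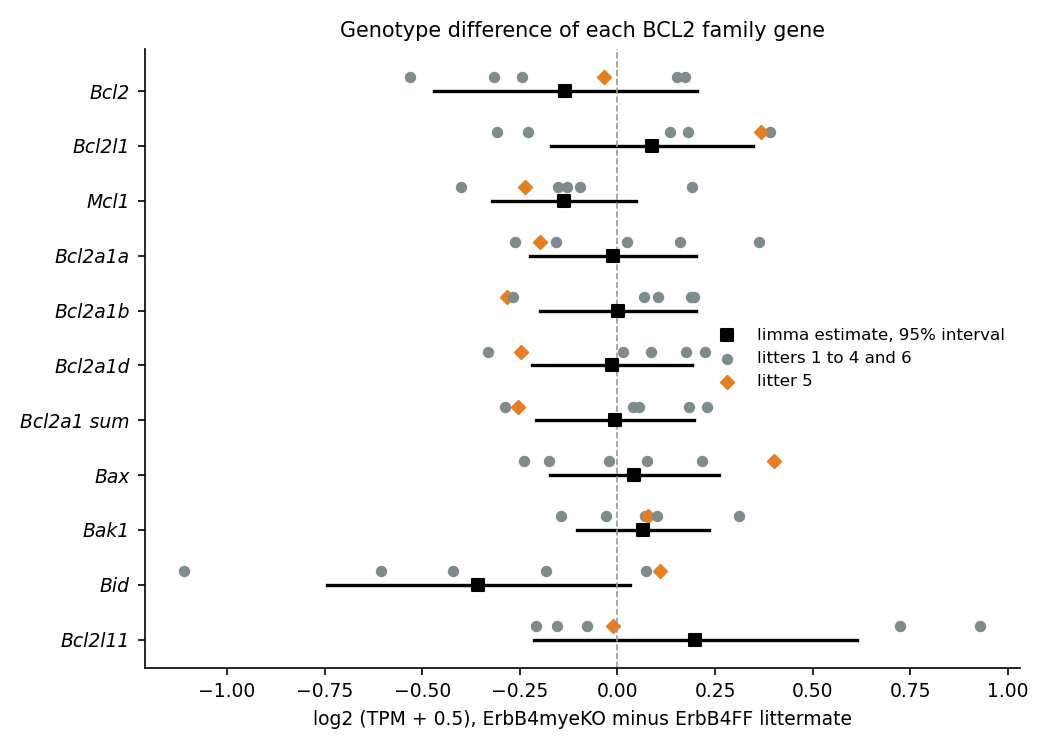
Difference of log2(TPM + 0.5) between ErbB4myeKO and its ErbB4FF littermate (horizontal axis) for each member and for the sum of the Bcl2a1 genes. Black squares and lines are limma estimates with 95% intervals (Bcl2 from a fit without the filter), grey points are single litters and orange diamonds litter 5. Every interval includes 0, and Bid, at -0.36, lies farthest from it.

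Litter took up 92.2% of the variance of Bax over the 12 libraries, 94.0% of that of Bak1, 85.5% of that of Bid, 81.4% of that of Bcl2l11 and 81.0% of that of the Bcl2a1 sum. The shares were lower for Mcl1, at 61.9%, and Bcl2l1, at 53.6%, whose adjusted limma p for litter were 0.164 and 0.347. Genotype, which is 1 contrast where litter is 5, took up at most 14.3%, for Mcl1. The median over all genes tested was 78.1% for litter and 2.49% for genotype. The labels give each litter a batch letter of its own, so litter and batch cannot be told apart here. In an F test of litter in the same limma fit, chosen after the values had been seen, 4 of 9 members passed an adjusted p of 0.05: Bax and Bak1 (adjusted p = 0.00666 each), Bid (0.00769) and Bcl2l11 (0.0299). Of all genes tested, 44.9% passed, so the count of members is near the background.

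The calls of Bax, Bak1 and Bid were lost without litter 5 and in no other fit with a litter left out, whereas that of Bcl2l11 was also lost without litter 3, at an adjusted limma p of 0.107, and with no filter on low values, at 0.0673. Bax was at 262 and 198 TPM there in ErbB4myeKO and ErbB4FF, against 107 to 189 TPM in the other 10 libraries. Bid was at 36.4 and 33.7 TPM, against 5.08 to 22.3 TPM. Bak1, the other effector, was at 30.95 and 29.3 TPM, below the 41.6 to 60.0 TPM of the other libraries, and Bcl2l11 was at 6.62 and 6.68 TPM, below their 7.02 to 23.4 TPM. The ratio of Bax to Bak1 was consequently 8.46 and 6.77 in litter 5 and 1.92 to 3.84 elsewhere. Mcl1 and the Bcl2a1 sum of litter 5 lay within the range of the other litters, and for Bcl2l1 its ErbB4FF library was the lowest of the 12, at 42.7 TPM. Without litter 5, 0 of 9 members passed the F test of litter, against 11.5% of all genes.

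**Figure D4:**
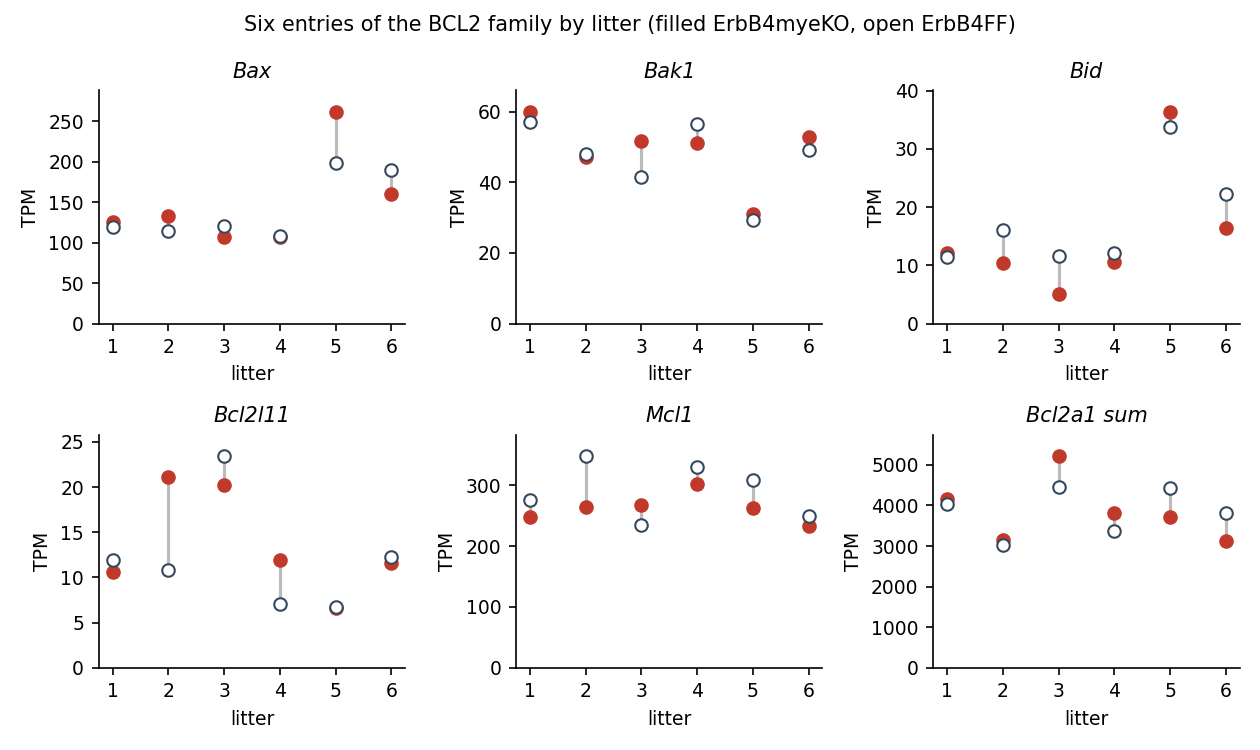
TPM (vertical axes, from 0) of Bax, Bak1, Bid, Bcl2l11, Mcl1 and the sum of the Bcl2a1 genes by litter (horizontal axes). Filled points are ErbB4myeKO and open points ErbB4FF, with littermates joined. Litter 5 is apart from the other litters for Bax, Bid and Bak1, and within their range for Mcl1 and the Bcl2a1 sum.

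Litter 6 stood next to litter 5 for 3 of these genes. Its libraries held 160 and 189 TPM of Bax, 16.5 and 22.3 TPM of Bid, and 1.12 and 1.51 TPM of Bcl2, whereas litters 1 to 4 held 107 to 133 TPM of Bax, 5.08 to 16.1 TPM of Bid and 0.176 to 0.721 TPM of Bcl2. The summed markers of neutrophils were also higher in litters 5 and 6: 10 markers summed to 215 and 186 TPM in litter 5 and 375 and 155 TPM in litter 6, against 41.2 to 74.0 TPM in litters 1 to 4, with 5 of the 10 above 1 TPM on average and Retnlg at 0 in every library. Within litter 6 the order was the opposite, since the ErbB4myeKO library had the higher marker sum and the lower Bax, Bid and Bcl2. Their part in the result was not tested. In bulk RNA, fewer cells of a type and less RNA per cell cannot be told apart. Lymphocyte markers summed to at most 25.1 TPM and erythroid markers to at most 0.696 TPM in any library. Of 7 dendritic cell markers, 3 averaged at least 1 TPM, Siglech was at 0 in every library, and Ccr7 is also in the study's M1 gene set. Their sum lay between 30.6 and 121.7 TPM. It was higher in the ErbB4myeKO littermate in 5 of 6 litters, in litter 5 only at 44.90 against 44.85 TPM. Among the 5 were litter 2 (54.0 against 36.3 TPM) and litter 4 (85.2 against 45.2 TPM), the litters in which Bcl2l11 was higher in ErbB4myeKO. The part of these markers in the Bcl2l11 difference was not tested.

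Bcl2l11 had its own litter pattern. It was highest in both libraries of litter 3 (20.2 TPM in ErbB4myeKO and 23.4 TPM in ErbB4FF) and in the ErbB4myeKO library of litter 2 (21.1 TPM), and the next library was at 12.2 TPM. The Bcl2a1 sum was also highest in litter 3, at 5218 TPM in ErbB4myeKO and 4452 TPM in ErbB4FF. The lowest sums were 3028 and 3145 TPM in litter 2 and 3119 TPM in the ErbB4myeKO library of litter 6.

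Correlations over the 12 libraries describe how the members varied together; littermates are not independent, and no p is given. Bcl2a1b and Bcl2a1d had r = 0.941, Bcl2a1a and Bcl2a1b r = 0.839, and Bcl2a1a and Bcl2a1d r = 0.742, on reads that the 3 copies partly share. Bax and Bid had r = 0.873, which was 0.702 over the 10 libraries outside litter 5. Bax and Bak1 had r = -0.731, but -0.117 outside litter 5, so the inverse relation of the effectors rests on that litter. Mcl1 was not closely tied to any member, with the strongest value at -0.558 for Bcl2l1 and, outside litter 5, at -0.579 for Bax.

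The genes most like a member over the 12 libraries were named by the highest r of log2(TPM + 0.5) among the genes tested. For Bax they were Tomm5 (r = 0.970), Txn2 (0.963) and Psmb3 (0.958), the genes of a mitochondrial import subunit, a mitochondrial thioredoxin and a proteasome subunit. For Mcl1 they were Mbd2 (0.937), Nono (0.918) and Ifi209 (0.914), for Bcl2l11 Nploc4 (0.956), Pcdh7 (0.940) and Zfp451 (0.935), and for the Bcl2a1 sum Dazap2 (0.914), Fgfr1op2 (0.897) and Smim7 (0.890). These are the top values among all genes tested over few litters and carry no test.

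Other genes of cell death, and targets of p53 and NF-κB, were read from 7 lists of 64 genes, of which 52 could be tested. Of these, 5 had an unadjusted limma p under 0.05 (9.62%, against 8.21% of all genes), 3 higher and 2 lower in ErbB4myeKO, and none an adjusted p under 0.05. Of all genes tested, 3.83% were higher and 4.38% lower at this unadjusted threshold. All 5 had an adjusted p of 0.603, so none passes the correction. Without the litter block, 4 of the 5 were no longer under the unadjusted threshold, with limma p of 0.0511 for Aifm1, 0.207 for Casp6, 0.327 for Ptgs2 and 0.374 for Huwe1, while Bad stayed under it at 0.0343.

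Casp6, the gene of a caspase that cleaves cell proteins once the cascade has started, was the 1 of 9 genes reported of the apoptosome and caspase list under the unadjusted threshold. It ranged from 1.69 to 10.3 TPM in ErbB4myeKO (median 8.80) and from 5.61 to 14.2 TPM in ErbB4FF (median 10.4), lower in 6 of 6 litters although the groups overlapped. Its log2 difference was -0.49 (SE 0.19, interval -0.93 to -0.06; unadjusted limma p = 0.0320; exact permutation p = 0.0312, the smallest the 64 swaps allow), and in 5 of 6 fits without 1 litter the unadjusted p stayed under 0.05. Without litter 3 the difference was -0.30, and without litter 5 the unadjusted limma p was 0.0752. The 2 most abundant genes of the list, Casp8, which cleaves BID, and Apaf1, the scaffold of the apoptosome, had means of 59.2 and 44.4 TPM and log2 differences of -0.08 and -0.13. Over the list, 6 of 9 genes were below 0 and 3 above, with a median log2 difference of -0.08.

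**Figure D5:**
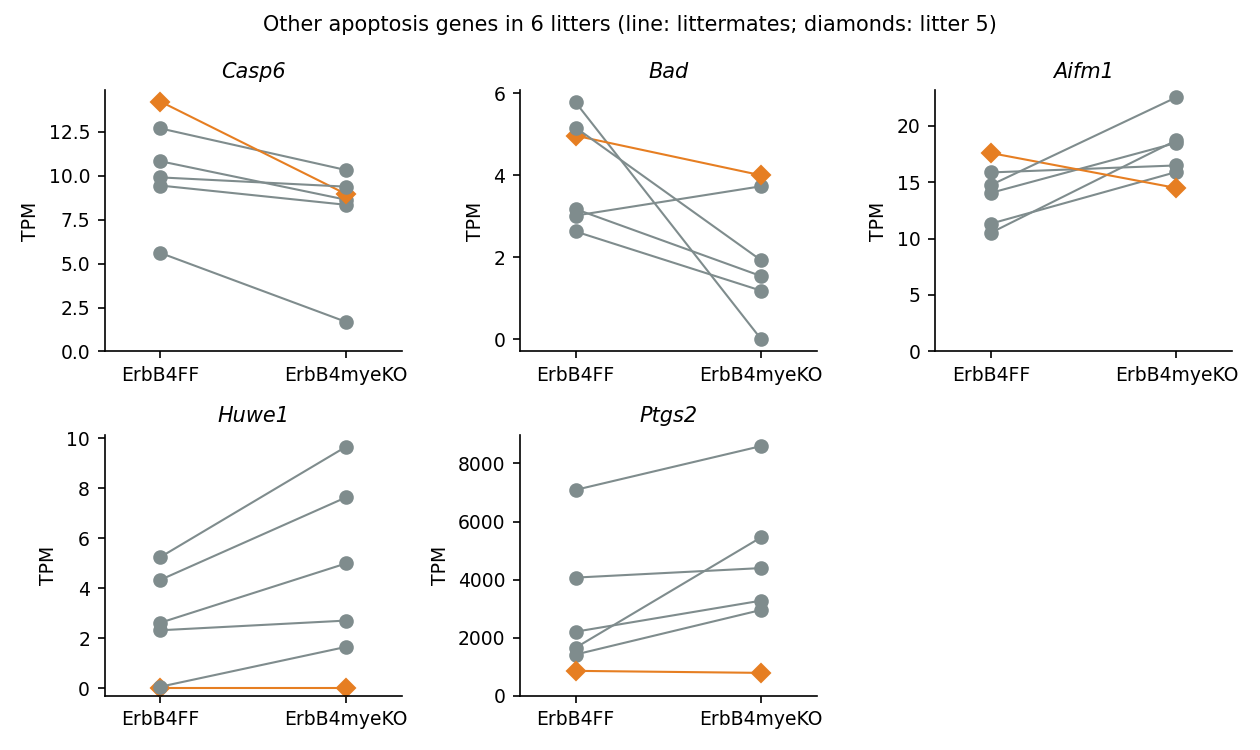
TPM (vertical axes) of the 5 genes of the lists with an unadjusted limma p under 0.05, in ErbB4FF and ErbB4myeKO; lines join littermates and orange diamonds are litter 5. All 6 lines fall for Casp6, whereas litter 5 runs against the other lines for Aifm1 and lies at 0 for Huwe1; none of the 5 genes passes an adjusted p of 0.05.

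Among 15 other genes of the family, 9 were tested, 6 above 0 and 3 below, with 1 under the unadjusted threshold. Bad, a BH3-only gene, ranged from 0 to 4.0 TPM in ErbB4myeKO (median 1.73) and from 2.63 to 5.78 TPM in ErbB4FF (median 4.07). It was lower in 5 of 6 litters, with a log2 difference of -1.11 (interval -2.19 to -0.03; unadjusted limma p = 0.0459; exact permutation p = 0.0625) at levels where few reads decide the value. Without litter 3, where the ErbB4myeKO library was listed at 0, the difference was -0.60, and in only 3 of 6 fits without 1 litter was the unadjusted p under 0.05. The 2 most abundant genes, Bnip3 at 205.6 TPM and Bcl2l14 at 39.7 TPM, had log2 differences of 0.04 and 0.03. Bcl2l10, Bok, Bik, Hrk, Bmf and Bcl2l15 were below the filter.

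The inhibitor of apoptosis list had 6 of 8 genes tested and none under the threshold. Birc3, which encodes cIAP2 and is also an NF-κB target, had a mean of 177 TPM and a log2 difference of 0.15, higher in 5 of 6 litters (exact permutation p = 0.0625), and Birc2 had 32.6 TPM and a log2 difference of 0.00. Of the 5 membrane channels and released factors, Aifm1, which encodes apoptosis-inducing factor, was the 1 under the unadjusted threshold. It ranged from 14.5 to 22.5 TPM in ErbB4myeKO (median 17.5) and from 10.5 to 17.6 TPM in ErbB4FF (median 14.4), higher in 5 of 6 litters, with a log2 difference of 0.34 (interval 0.00 to 0.67; unadjusted limma p = 0.0477; exact permutation p = 0.0938). The threshold was kept in 2 of 6 fits without 1 litter. Vdac2, which holds BAK at the membrane, and Vdac3 had means of 160.5 and 134 TPM and log2 differences of -0.03 and 0.12.

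Of 5 genes that control MCL1 turnover, 2 were tested. Huwe1, a ubiquitin ligase of MCL1, was listed at 0 in both libraries of litter 5 and was higher in ErbB4myeKO in the 5 other litters. It ranged from 0 to 9.66 TPM in ErbB4myeKO (median 3.85) and from 0 to 5.24 TPM in ErbB4FF (median 2.47), with a log2 difference of 0.75 (interval 0.16 to 1.35; unadjusted limma p = 0.0201; exact permutation p = 0.0625). The unadjusted p stayed under 0.05 in 6 of 6 fits without 1 litter. The ErbB4FF library of litter 6 was at 0.0579 TPM, and without litter 6 the log2 difference was 0.51. These are levels of listed transcripts, so a value of 0 need not mean that the whole gene was at 0. Usp9x, the deubiquitinase of MCL1, had a mean of 27.2 TPM and a log2 difference of 0.07.

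Of 11 targets of p53, a list that includes Trp53 itself, 10 were tested, 8 above 0 and 2 below with a median log2 difference of 0.11, and none was under the threshold. Cdkn1a, which encodes the cell cycle inhibitor p21, had a mean of 946.5 TPM and a log2 difference of 0.09, and Mdm2, the ligase of p53, 107 TPM and -0.03. Of 12 targets of NF-κB, 6 were above 0 and 6 below. Ptgs2, which encodes cyclooxygenase-2, ranged from 785 to 8599 TPM in ErbB4myeKO (median 3835) and from 855 to 7090 TPM in ErbB4FF (median 1928), higher in 5 of 6 litters, with a log2 difference of 0.60 (interval 0.06 to 1.14; unadjusted limma p = 0.0330; exact permutation p = 0.0938). Without litter 2 the difference was 0.38, and in 3 of 6 fits without 1 litter the unadjusted p stayed under 0.05. Nfkbia, which encodes the inhibitor of NF-κB, had a mean of 856 TPM and a log2 difference of 0.00.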

How the data were processed

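RNA was sequenced as single-end reads of 75 bp from 12 cultures. The deposited TPM values, made by the authors with kallisto, cover principal transcripts in 12 libraries (build mm10 per the processing notes, which also name CASAVA and sleuth, without versions), so the values of a library sum to part of its TPM. The release of the transcriptome is not given in the sources used here. A deposited column of natural log values (sleuth's average of normalized estimated counts, after an offset of 0.5) was used only for the counts behind a transcript. The authors' columns of their own test (p-values, q-values, fold changes) were not used. The values carry no read depth per library; the study gives 1 approximate depth for all.

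The 405 repeated lines of 29213 were dropped, and TPM were summed per gene. For the 8780 genes averaging 1 TPM or more, limma 3.58.1 (R 4.3.3, trend) modelled log2(TPM + 0.5) on genotype with litter as a block, whereas the study adjusted for litter and sex, and p-values were adjusted over all genes after Benjamini and Hochberg. The replicate number names the litter, and the labels' batch letter coincides with it. Littermates' deviations from the mean of each gene correlated at 0.273 to 0.774 in the 6 litters. Single genes were also tested by exact two-sided permutation over 64 swaps within litters (smallest p 0.0312). Sex is not on the labels and was not a covariate.

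The members and lists were chosen with earlier results of these data known. Named were all members, the 2 most abundant genes of each list with those at an unadjusted p under 0.05, and the 3 genes most correlated with Mcl1, Bcl2l11, Bax and the Bcl2a1 sum. A gene of the lists is not reported here and stays out of their counts. Alternatives were other pseudocounts, filters, scalings, covariates and litters left out. Positions and symbols came from GENCODE M21 and promoters from RefSeq (GRCm38.p6). Python 3.11.15 with pandas 2.3.3, numpy 2.4.6, scipy 1.17.1 and matplotlib 3.10.9 was used.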

Additional observations from a re-analysis of the deposited data

Results flagged for a closer look

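A library was listed here when its gap to the nearest library of its genotype, divided by the range of the 6, exceeded Dixon's 95% critical value. This was met in 7 of 56 groups of 6, over 28 entries. These were the members, the Bcl2a1 sum, and the list genes named for their level or unadjusted p. Trp53 was not among them. Chance gives about 1 in 20 for normally distributed values and independent groups. TPM were not transformed here, and genes and littermates vary together, so the count cannot be set against that rate. Among the members, Bax was at 262 TPM and Bid at 36.4 TPM in the ErbB4myeKO library of litter 5, against next values of 160 and 16.5 TPM, and Bcl2l11 was at 23.4 TPM in the ErbB4FF library of litter 3, against 12.2 TPM. In litter 5, the ErbB4FF library also had the highest Vdac2 (260 TPM, next 152 TPM) and the lowest Mdm2 (32.4 TPM, next 104 TPM). In litter 3, Casp6 was lowest in ErbB4myeKO (1.69 TPM, next 8.35 TPM) and Vdac3 highest in ErbB4myeKO (184 TPM, next 139 TPM). All 7 values belong to litters 3 and 5.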

How the results depend on the processing

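The count of members with an unadjusted p under 0.05 was 0 under every alternative other than leaving out a litter, where it was 0 to 1 (Bid without litters 1 and 5, Mcl1 without litter 3), and no member passed an adjusted p. Over all genes the unadjusted count was 721, fell to 75 with no replicate block and ran from 413 to 864 with a litter left out, lowest without litter 2 (413) and then litter 4 (458). The adjusted count was 0, or 0 to 1 with a litter left out, the 1 gene being Igkv1-88 without litter 3, named after its values were seen. The replicate block changed no call of a member. The count of members that differ between litters was 0 to 6 with a litter left out, with 0 without litter 5. Differences near 0 changed sign, each without passing a threshold: with a Y-linked covariate beside the replicate block Bcl2a1a was 0.025, Bcl2a1d 0.034 and the Bcl2a1 sum 0.037, and with rescaling by median ratios Bcl2a1b was -0.0089. Leaving out litters gave -0.087 to 0.038 for Bcl2a1a, -0.038 to 0.058 for Bcl2a1b, -0.061 to 0.051 for Bcl2a1d, -0.053 to 0.051 for the Bcl2a1 sum and -0.028 to 0.099 for Bax. The cause was not tested. TPM carry no counts per library, so no counting interval could be given. In the fit with litter as a block and in the permutation, p-values for genotype rest on how the difference between littermates varied over 6 litters.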

Other observations

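Trp53, which encodes p53 and was singled out after its values were seen, had the largest log2 difference of the 7 lists (2.07; limma adjusted p = 0.639) and did not pass the test. It was above 17 TPM in the ErbB4myeKO libraries of litters 1, 3, 4 and 6 (17.4 to 26.1 TPM) and in the ErbB4FF library of litter 5 (22.6 TPM). The other 7 libraries were listed at 0.000203 to 4.80 TPM. These are levels of listed principal transcripts, so a value near 0 need not mean that the whole gene was near 0. Some targets were named after their values were seen. Cdkn1a and Mdm2 were highest in the 2 libraries of litter 3, where Trp53 was listed at 17.4 and 0.000203 TPM. Gadd45a, Sesn2, Zmat3 and Trp53inp1 were each higher in ErbB4myeKO in 5 of 6 litters, with log2 differences of 0.23, 0.21, 0.21 and 0.12. Mdm2 and Btg2 were each lower in 5 of 6 litters, with log2 differences of -0.03 and -0.06. None of these targets passed the test, and their relation to Trp53 was not tested.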
